A study of Mus musculus with 6 samples.

Results

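The genes described here encode the 3 nuclear RNA polymerases and the general transcription factors that place them on promoters. They were taken from the array by symbol: all probe sets with a single annotated symbol that begins with Polr1, Polr2, Polr3, Gtf2 or Gtf3, or with Taf and a digit, together with Ubtf, Rrn3, Tbp and Brf1. The rule found 101 probe sets of 60 genes, out of 22626 probe sets and 12393 named genes. Brf1 itself, Taf1 and Polr3b are among the genes not analysed here, and probe sets shared with a second symbol (Polr2k, Polr2l and Taf9) were left out. The arrays measured total RNA of bone marrow erythroblasts, the nucleated precursors of red cells, sorted for CD71, the transferrin receptor. The 3 mutant RPS19 samples came from FVB/N mice that express a transgene for RPS19 with the change R62W, and the 3 wild type samples from FVB/N mice without it, with 1 array each. RPS19 belongs to the small ribosomal subunit and is often mutated in Diamond-Blackfan anaemia, the disease named in the series title. The sources used here do not give the transgene's promoter, the ages and sexes of the mice, or whether marrow was pooled. They do not say either whether the replicates are separate animals. The p-values therefore measure the spread between 3 arrays a group, part or all of which may be technical.

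RNA polymerase I transcribes the large ribosomal RNA precursor, polymerase II makes messenger RNA and many small nuclear RNAs, and polymerase III makes transfer RNA and 5S ribosomal RNA. Each enzyme has its own large catalytic subunits and shares some small ones with the others, and each needs its own set of factors, with the TATA-binding protein Tbp common to all of them. Maturing erythroblasts produce great amounts of globin messenger RNA and ribosomes before the nucleus condenses and is expelled.

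Values are log2 expression after RMA normalisation, differences are mutant minus wild type on that scale, and a probe set was called at an adjusted p under 0.05 (limma with Benjamini-Hochberg adjustment over all 22626 probe sets). The mutant arrays stood further apart from each other (SD over probe sets of the difference between a pair of arrays, 0.345 to 0.503) than the wild type arrays (0.143 to 0.186). Of the 101 probe sets, 4 were called, 3 higher and 1 lower in the mutant. That is 3.96%, against 2.33% of all probe sets (0.941% called higher and 1.39% called lower), so the share lay near the background of the array. The 3 that rose were probe sets of Polr2a, the catalytic subunit of polymerase II, of Taf7, a subunit of the polymerase II factor TFIID, and of Polr3f, a subunit of polymerase III. The one that fell was a probe set of Polr3c, another polymerase III subunit. When 1 probe set stood for each gene, 0 of the 60 genes were called by limma, against 0.331% of all genes. At an unadjusted p under 0.05 there were 16 (26.7%), against 17.4% of all genes. Without wild type replicate 1, 2 or 3, 0 of the 101 probe sets were called (20, 22 and 22 at an unadjusted p under 0.05). Over all probe sets, the fits that left out 1 array called 12 to 1352 higher and 24 to 1192 lower. At an unadjusted p under 0.05 these fits gave 1220 to 3117 higher and 1427 to 3085 lower of all probe sets. The fit that left out mutant replicate 1 called 17 members, 11 higher and 6 lower, against 1352 higher and 1192 lower of all probe sets. In sorted populations such as these, fewer cells of a type and less RNA per cell cannot be told apart.

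Polr2a encodes the largest polymerase II subunit, whose long repeated tail is phosphorylated as transcription starts. Its probe set 1426242_at (Entrez gene 20020) read 7.61, 7.90 and 7.84 on the mutant arrays, against 7.11, 7.06 and 7.11 on the wild type arrays. The groups did not overlap, and the wild type arrays lay within a narrow band. The difference was 0.69 ± 0.11 (log2, SE, n = 3 each), a 1.61-fold rise (adjusted p = 0.028, limma). The other probe set of the gene, 1422311_a_at, went the other way, with 4.79, 4.58 and 4.86 on the mutant arrays and 5.25, 5.18 and 4.98 on the wild type arrays. Its difference was -0.39 ± 0.12 and did not pass the test (adjusted p = 0.14, limma), although the groups did not overlap here either. The mean of both probe sets differed by 0.15 (adjusted p = 0.46, limma), the highest adjusted p among the alternative settings. The first probe set itself had an adjusted p of 0.0023 with array weights and 0.087 without a shared variance estimate. The call on 1426242_at was also lost without mutant replicate 2 (0.63, adjusted p = 0.079).

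Taf7 binds Taf1 within TFIID and, in human cells, is known to restrain its acetyltransferase activity. Its probe set 1423169_at (Entrez gene 24074) read 5.94, 5.72 and 6.002 on the mutant arrays, against 5.10, 5.09 and 5.24 on the wild type arrays. All mutant arrays lay above all wild type arrays. The rise was 0.74 ± 0.11 (log2, SE, n = 3 each), or 1.67-fold (adjusted p = 0.025, limma). The second probe set, 1423170_at, had the same sign, with 6.09, 5.70 and 6.004 in the mutant and 5.78, 5.72 and 5.46 in wild type. Its groups overlapped, and its difference of 0.28 was not called (adjusted p = 0.34). Over the alternative settings the adjusted p of 1423169_at ran from 0.0055 to 0.17, and the mean of both probe sets, 0.51, was not called (adjusted p = 0.090). Of the leave-one-out fits, only those without a wild type replicate ended the call.

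**Figure D1:**
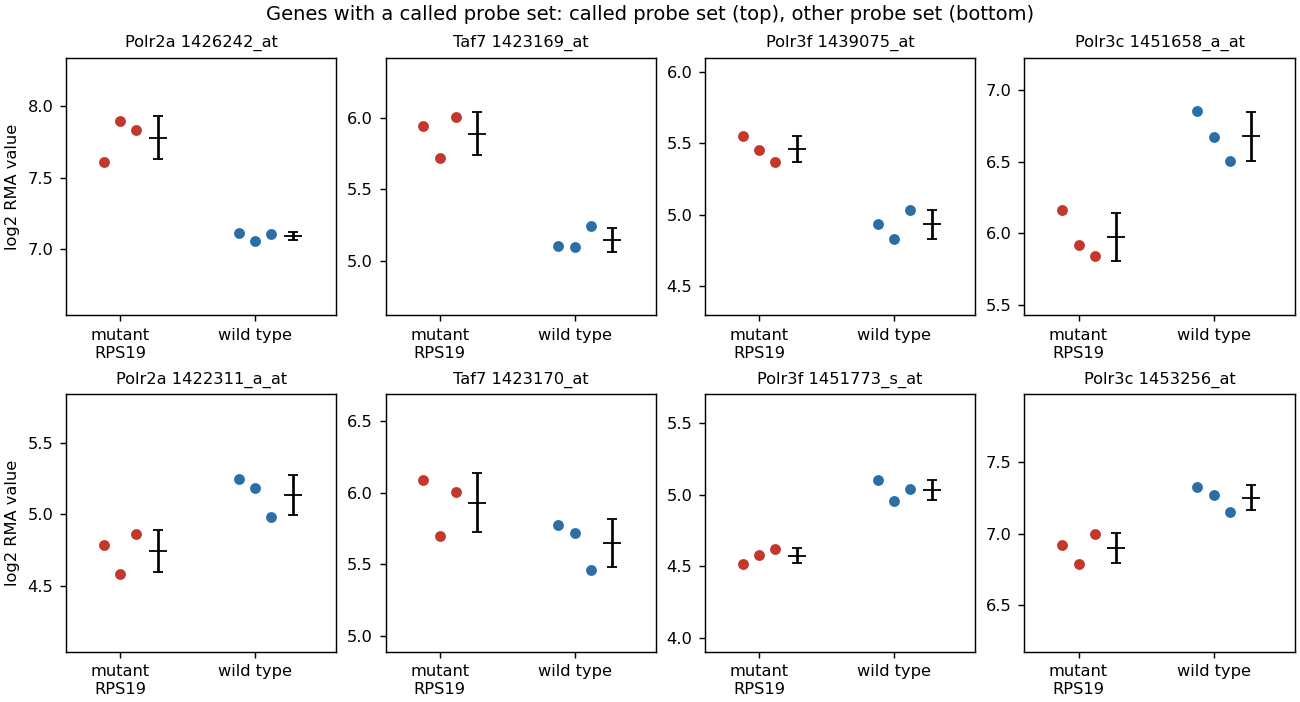
Log2 RMA value (vertical axis, each panel spans the same height) of the probe sets of Polr2a, Taf7, Polr3f and Polr3c on the 3 mutant RPS19 arrays (red) and the 3 wild type arrays (blue). The called probe set is above and the other probe set of the gene below; bars are mean and SD. For Polr2a and Polr3f the lower panel shows the opposite direction (-0.39 and -0.46).

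Polymerase III is recruited by its factors through a trio of subunits that bind each other, encoded by Polr3c, Polr3f and either Polr3g or Polr3gl. The probe set that fell belongs to Polr3c. This probe set, 1451658_a_at (Entrez gene 74414), read 6.16, 5.92 and 5.84 on the mutant arrays, against 6.85, 6.67 and 6.51 on the wild type arrays. The groups did not overlap, and the difference was -0.70 ± 0.13 (log2, SE, n = 3 each, adjusted p = 0.044, limma), which is 0.614 of the wild type level. Its brighter probe set, 1453256_at, read 6.92, 6.79 and 6.996 in the mutant and 7.33, 7.27 and 7.15 in wild type. That gave -0.35 ± 0.10 in the same direction without overlap, but no call (adjusted p = 0.12). The adjusted p of 1451658_a_at ran from 0.0069 to 0.22 over the alternative settings, and the call was also lost without mutant replicate 2 (adjusted p = 0.12) or mutant replicate 3 (adjusted p = 0.062).

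For Polr3f the 2 probe sets disagreed. Probe set 1439075_at (Entrez gene 70408) read 5.55, 5.45 and 5.37 on the mutant arrays, against 4.93, 4.83 and 5.03 on the wild type arrays. That was a rise of 0.53 ± 0.10 (log2, SE, n = 3 each, adjusted p = 0.049, limma), just inside the threshold. Probe set 1451773_s_at read 4.52, 4.58 and 4.62 in the mutant and 5.10, 4.96 and 5.04 in wild type, a difference of -0.46 ± 0.091 just outside it (adjusted p = 0.051). In each case the groups did not overlap. The mean of both differed by 0.03 (adjusted p = 0.88), so no direction for the gene is given. The rise was also not called without mutant replicate 2 (adjusted p = 0.12), after median centring (adjusted p = 0.053) or with a trended and robust variance prior (adjusted p = 0.061). The genes for the remaining place, Polr3g and Polr3gl, chosen after their values were seen, were not called. Polr3g differed by 0.02 (adjusted p = 0.97) and Polr3gl by 0.28 ± 0.12 (adjusted p = 0.26).

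The promoters of Polr2a, Polr3c and Polr3f are shown because these genes have called probe sets; that of Taf7, which also has one, is not shown here. The sequences are those of RefSeq on GRCm38.p6 and cover the 250 bases before the annotated start, 5′ to 3′ on the gene's strand, with motif matches in capitals. The Polr2a stretch lies at chr11:69758634-69758883 (minus strand), that of Polr3c at chr3:96727440-96727689 (minus strand) and that of Polr3f at chr2:144527495-144527744 (plus strand).
Polr2a: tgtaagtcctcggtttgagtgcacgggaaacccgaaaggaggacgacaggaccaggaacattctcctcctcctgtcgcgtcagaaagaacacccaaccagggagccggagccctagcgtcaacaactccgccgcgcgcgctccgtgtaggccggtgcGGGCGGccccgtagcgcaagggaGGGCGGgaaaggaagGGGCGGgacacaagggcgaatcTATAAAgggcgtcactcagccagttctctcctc
Polr3c: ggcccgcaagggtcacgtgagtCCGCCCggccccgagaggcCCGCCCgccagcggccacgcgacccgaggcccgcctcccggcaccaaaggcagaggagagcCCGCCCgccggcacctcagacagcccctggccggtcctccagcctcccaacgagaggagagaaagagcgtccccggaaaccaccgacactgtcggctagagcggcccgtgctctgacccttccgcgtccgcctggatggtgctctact
Polr3f: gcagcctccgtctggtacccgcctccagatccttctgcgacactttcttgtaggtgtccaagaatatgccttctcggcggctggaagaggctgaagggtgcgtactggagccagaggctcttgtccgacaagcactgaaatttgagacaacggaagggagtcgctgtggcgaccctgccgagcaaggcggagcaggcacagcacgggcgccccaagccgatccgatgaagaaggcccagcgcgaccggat
The Polr2a stretch holds TATAAA, the letters of a TATA box, from base -33 to base -28 before the start, and 3 matches to GGGCGG, the GC box bound by Sp1 family factors. The Polr3c stretch holds 3 GC box matches, all on the opposite strand as CCGCCC, and no TATAAA. The Polr3f stretch held none of the 4 motifs searched on both strands. Beside the TATA box and the GC box, these were the CCAAT box and a motif of Ets family factors, spelled CCGGAAG. Over windows that also include the 50 bases after the start, 54 of the 60 genes matched, with 68 promoters. A GC box stood in 42 of these (61.8%), against 35.7% of 32851 promoters of all gene types. The Ets letters stood in 33.8% of them, against 8.86% of all. The CCAAT box was found in 30.9%, against 37.4%, and the TATA box in 11.8%, against 13.6%. The median GC content was 59.3% in these windows, against 52.7% in all. These matches are letters in a window, not measured binding.

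The members can be set out by enzyme. The median difference was 0.03 over the 17 polymerase I probe sets, -0.01 over the 27 of polymerase III and -0.15 over the 11 of shared components. It was -0.12 over 9 polymerase II subunit probe sets, -0.07 over 15 of the general factors TFIIA to TFIIH, 0.15 over 15 of TFIID and related TAFs, and 0.16 over 7 of other symbols that the rule takes in. The median over all members was -0.04, and that over all probe sets of the array was -0.01. The middle 50% of all probe sets lay between -0.16 and 0.14. The medians of TFIID and of the other symbols were just above that range and that of shared components just inside it. That range describes single probe sets, so it cannot show whether a class median was unusual. The medians describe these samples and were not tested.

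**Figure D2:**
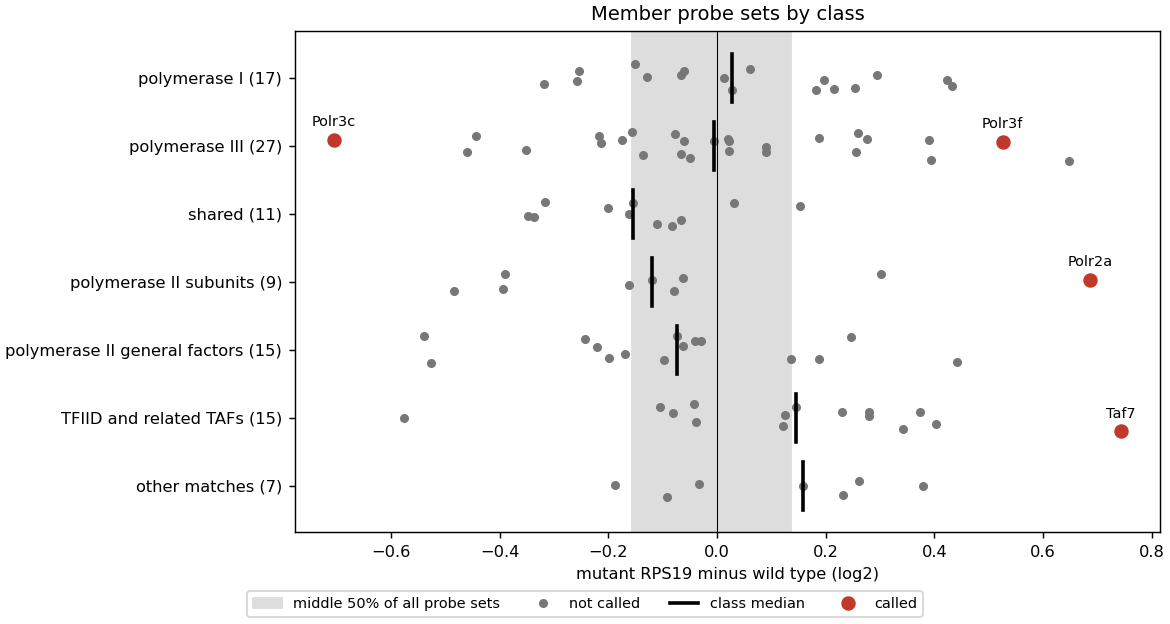
Difference between mutant RPS19 and wild type (horizontal axis, log2) of the 101 member probe sets, 1 point each, by class with the number of probe sets. Red points were called (Polr2a, Taf7, Polr3f and Polr3c), black lines are class medians, and the grey band is the middle 50% of all probe sets (-0.16 to 0.14).

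Polymerase I and its factors had 0 called probe sets by limma among 17, against 2.33% of all probe sets. At an unadjusted p under 0.05 there were 3 (17.6%, 2 higher and 1 lower), against 19.1% of all. Polr1a, its catalytic subunit, differed by 0.43 ± 0.15 on one probe set, with 5.83, 5.73 and 6.27 in the mutant and 5.41, 5.57 and 5.56 in wild type (adjusted p = 0.19, limma). Its other probe sets differed by 0.18 and 0.06. The 3 Polr1a probe sets thus shared their sign, and only the first had groups that did not overlap. Polr1b, the second largest subunit, differed by -0.07. Ubtf, which binds along active ribosomal RNA genes, differed by -0.15 and -0.32 ± 0.13 on its 2 probe sets (adjusted p = 0.39 and 0.25). Rrn3, the factor that makes polymerase I competent to start and that growth signals regulate, differed by 0.01 (95% confidence interval -0.25 to 0.28, adjusted p = 0.97). Rrn3 took the sign of -0.04 when quantile normalisation was repeated without controls and of -0.09 with array weights. The remaining factor of this enzyme is SL1, made of Tbp and the subunits Taf1a, Taf1b, Taf1c and Taf1d. Of 5 Taf1d probe sets, 3 were lower and 2 higher in the mutant, from -0.26 to 0.42. The highest, 1436558_at, read 5.34, 5.59 and 5.93 in the mutant and 5.22, 5.20 and 5.17 in wild type (adjusted p = 0.19). Of the remaining SL1 subunits, named after inspection of their values, Taf1a differed by 0.25 (adjusted p = 0.40), Taf1b by -0.25 (adjusted p = 0.47) and Taf1c by 0.22 (adjusted p = 0.52).

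Polymerase III and its factors had 2 called probe sets among 27, 1 higher and 1 lower, and 10 at an unadjusted p under 0.05, 5 in each direction. These are 7.41% called, against 2.33% of all probe sets, and 37.0% at the unadjusted threshold, against 19.1%. Polr3a, the catalytic subunit, differed by 0.39 ± 0.11, with 7.30, 7.57 and 7.61 in the mutant and 7.14, 7.04 and 7.12 in wild type (adjusted p = 0.12, limma). Its second probe set differed by 0.19 (adjusted p = 0.45). TFIIIC recognises the promoter inside transfer RNA genes. Its largest subunit Gtf3c1, chosen after its values were seen, read 7.34, 7.34 and 7.41 in the mutant and 6.99, 7.02 and 6.90 in wild type. The mutant arrays were close together and above all wild type arrays, and the difference of 0.39 ± 0.089 was not called (adjusted p = 0.072). Gtf3c2, also chosen after its values were seen, had 4 probe sets that differed by 0.65, 0.26, 0.09 and -0.16, none of them called. Gtf3a, which brings TFIIIC to the 5S genes and was likewise picked on its values, differed by 0.02. Polr3k, a small subunit whose yeast counterpart takes part in RNA cleavage and which was chosen after its values were seen, had 5 probe sets, all lower in the mutant, from -0.44 to -0.06. The lowest of these, 1422753_a_at, read 7.69, 7.52 and 7.59 in the mutant and 8.13, 8.07 and 7.93 in wild type (adjusted p = 0.073, limma). The Polr3k probe sets 1422752_at and 1439266_a_at differed by only -0.07 and -0.06 (adjusted p = 0.78 for each, limma). The dim Polr3k probe set 1450737_at read 3.20 to 3.73 over all arrays. In this class 10 of 27 probe sets had groups that did not overlap, against 26.1% of all probe sets.

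**Figure D3:**
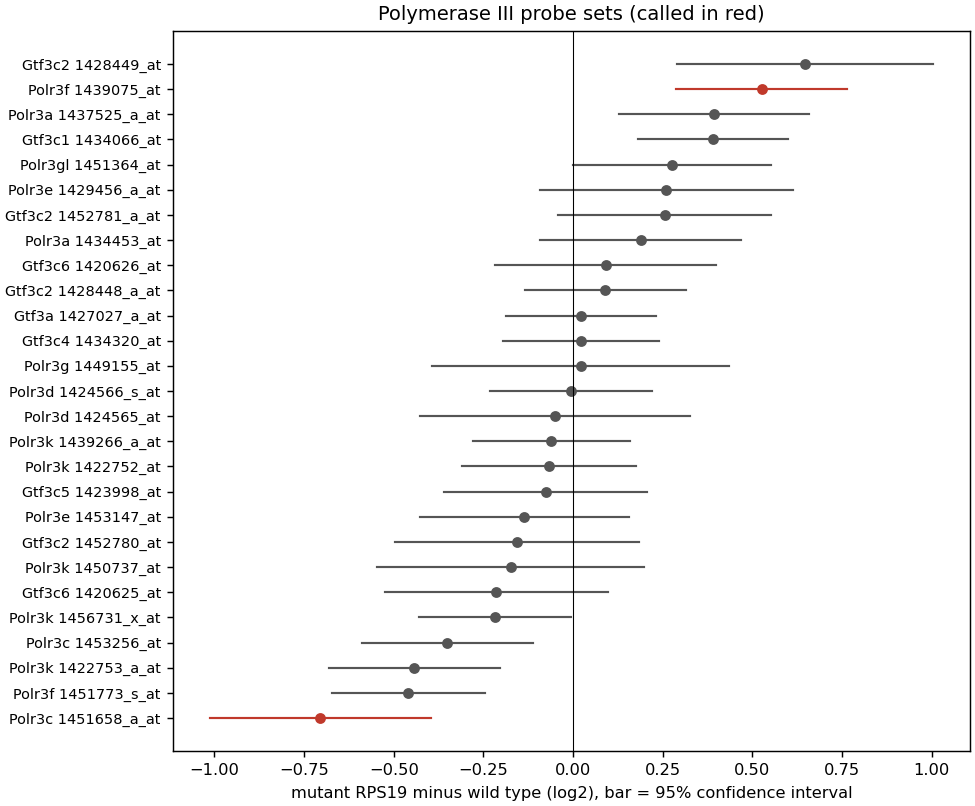
Difference between mutant RPS19 and wild type (horizontal axis, log2, with the 95% confidence interval from limma) of the 27 polymerase III probe sets. Polr3f 1439075_at and Polr3c 1451658_a_at, in red, were called; the second Polr3f probe set lies on the other side of 0.

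The components shared between enzymes had 0 called probe sets by limma among 11, against 2.33% of all probe sets. At an unadjusted p under 0.05 there were 3 (27.3%, all lower), against 19.1% of all. Polr1c and Polr1d pair up in polymerases I and III. Polr1c read 8.40, 8.08 and 8.35 in the mutant and 8.64, 8.62 and 8.62 in wild type on 1417041_at, a difference of -0.35 ± 0.11 (adjusted p = 0.16, limma). Polr1d read 9.78, 9.62 and 9.80 in the mutant and 10.11, 10.07 and 9.97 in wild type on 1448287_at, a difference of -0.32 ± 0.098 (adjusted p = 0.14). The groups did not overlap in either case. The second probe sets differed by 0.15 for Polr1c and -0.08 for Polr1d. Polr2e, present in all the enzymes, differed by -0.34 ± 0.11 on its dimmer probe set (adjusted p = 0.16) and by -0.15 on the other. Polr2f and Polr2h are likewise common to the enzymes and were named after inspection of their values. The 2 Polr2f probe sets differed by -0.16 and -0.11, and that of Polr2h by -0.20. Tbp differed by -0.07 on 1426469_a_at (95% confidence interval -0.29 to 0.16, adjusted p = 0.77) and by 0.03 on the dim probe set 1426470_at.

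Of the 9 polymerase II subunit probe sets, 1 was called, higher in the mutant (11.1%, against 2.33% of all probe sets). At an unadjusted p under 0.05, 2 were higher and 3 lower (55.6%, against 19.1%). In 6 the groups did not overlap (66.7%, against 26.1%). The 14 Polr2 probe sets, shared subunits included, had a median level of 8.93, against 5.37 over all probe sets. All probe sets with a mean of at least 8 had a median difference of -0.03. Of the 14 Polr2 probe sets, 12 had a lower mutant mean and 2 a higher one, against 11886 lower and 10740 higher of all probe sets. The 2 higher ones were the called Polr2a probe set and that of Polr2i, a small subunit whose yeast counterpart helps in start site choice and which was chosen after its values were seen. Polr2i read 8.92, 8.89 and 8.87 in the mutant and 8.67, 8.62 and 8.49 in wild type, a difference of 0.30 ± 0.093 (adjusted p = 0.14, limma). Polr2d, which forms the stalk of the enzyme with Polr2g, read 8.83, 8.61 and 8.58 in the mutant and 9.17, 9.22 and 9.08 in wild type. All mutant arrays were lower, and the difference of -0.48 ± 0.11 was not called (adjusted p = 0.065). Its partner Polr2g differed by -0.08. Polr2j, an assembly subunit that pairs with Polr2c, read 9.17, 9.15 and 9.44 in the mutant and 9.69, 9.68 and 9.56 in wild type (-0.39 ± 0.11, adjusted p = 0.12). Polr2c differed by -0.06. Polr2b, the second largest subunit, differed by -0.16 (adjusted p = 0.40), and Polr2m by -0.12. Polr2c, Polr2g and Polr2m were chosen after their values were seen.

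**Figure D4:**
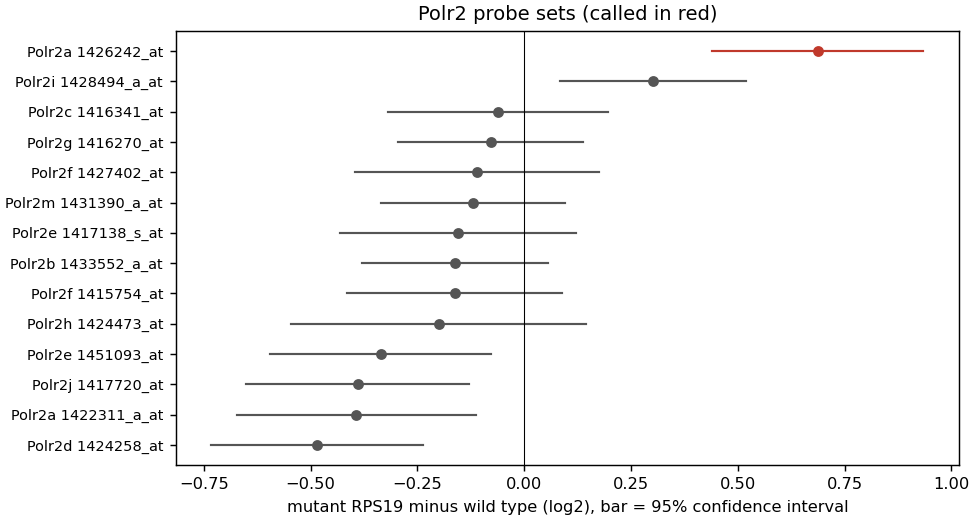
Difference between mutant RPS19 and wild type (horizontal axis, log2, with the 95% confidence interval from limma) of the 14 Polr2 probe sets. The called Polr2a probe set, in red, is at 0.69 and its other probe set at -0.39; 12 of the 14 lie below 0.

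The general factors of polymerase II had 0 called probe sets by limma among 15, against 2.33% of all probe sets. At an unadjusted p under 0.05 there were 4 (26.7%, 2 in each direction), against 19.1% of all. Gtf2f1, the large subunit of TFIIF, read 7.63, 7.56 and 7.89 in the mutant and 8.30, 8.28 and 8.12 in wild type. The groups did not overlap, and the difference was -0.54 ± 0.12 (adjusted p = 0.066, limma); its second probe set differed by -0.22. TFIIH opens promoter DNA and also serves nucleotide excision repair. Its subunit Gtf2h3 read 6.17, 6.45 and 6.71 in the mutant and 7.02, 6.98 and 6.91 in wild type (-0.53 ± 0.14, adjusted p = 0.11). Gtf2h4, another core subunit, had 4 probe sets on both sides of 0. Of these 1437163_x_at stood at 0.44 ± 0.12 (adjusted p = 0.12) and the remaining 3 ranged from -0.20 to 0.14. Gtf2b, the single protein TFIIB that bridges Tbp and the enzyme, differed by -0.07 (95% confidence interval -0.33 to 0.18, adjusted p = 0.77).

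TFIID carries Tbp and the TAFs, and some TAFs or their relatives also serve in the SAGA coactivator. Beside Taf7, 0 of the 14 remaining probe sets of this class were called by limma, and 3 had an unadjusted p under 0.05. Over all probe sets the shares were 2.33% and 19.1%. Taf12, a histone-fold protein of TFIID and SAGA, read 7.74, 7.98 and 8.07 in the mutant and 8.64, 8.53 and 8.35 in wild type. It was the lowest of the class, at -0.58 ± 0.13 (adjusted p = 0.067, limma). Taf11, which pairs with Taf13, read 6.73, 6.58 and 6.75 in the mutant and 6.41, 6.27 and 6.18 in wild type, a difference of 0.40 ± 0.10 (adjusted p = 0.095). Neither pair of groups overlapped. Of the class, 10 probe sets had a higher mutant mean and 5 a lower one, against 10740 higher and 11886 lower of all probe sets. Of others, named after inspection of their values, Taf6 differed by 0.28 and Taf13 by -0.10, and the 2 Taf10 probe sets differed by 0.15 and 0.34. The rule also takes in the TFII-I family, sequence-binding factors that share only the name with the basal set. Gtf2ird2 differed by 0.38 ± 0.10 (adjusted p = 0.11) and Gtf2i by 0.26, 0.23, -0.03 and -0.19 on 4 probe sets. Of these 7 probe sets 0 were called by limma (2 at an unadjusted p under 0.05).

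Several members were measured more than once. Of 27 such genes, 14 had probe sets of opposite sign (51.9%), against 2615 of 4956 genes on the whole array (52.8%). Polr2a and Polr3f were the 2 members with probe sets of opposite sign that each had an unadjusted p under 0.05 (7.41%, against 2.44% of all such genes). By Affymetrix convention the ending _s_at or _x_at marks probe sets whose probes can match further transcripts. There were 13 of them among the members, the Polr3f probe set at -0.46 and the Gtf2h4 probe set at 0.44 included.

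Differences that were not called were counted at a weaker threshold. At an unadjusted p under 0.05 there were 31 members, 16 higher and 15 lower (30.7%), against 19.1% of all probe sets. In 32 of 101 the groups did not overlap (31.7%), against 26.1%. Among probe sets with a mean of at least 6 on the log2 scale, the share at an unadjusted p under 0.05 was 31.1% of 74 members, against 26.1% of all 9659, and the share without overlap was 32.4%, against 33.8%. The median SD of a member was 0.172 in the mutant and 0.0861 in wild type. In 87 of 101 members the arrays of the mutant were the more spread, against 17349 of all 22626 probe sets.

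The 3 mutant arrays did not move alike. For shared components the median deviation from the wild type mean was -0.17, -0.31 and -0.0019 on mutant arrays 1, 2 and 3, and for the general factors of polymerase II it was -0.07, -0.25 and -0.03. For TFIID and related TAFs it was -0.01, 0.09 and 0.33, so that mutant array 3 was the highest there. Polymerase I stood at 0.15, -0.06 and 0.13, with mutant array 2 the lowest. The polymerase II subunits were below the wild type mean on all of them, at -0.17, -0.07 and -0.15, but wild type array 3 stood at -0.08, so the groups overlapped.

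**Figure D5:**
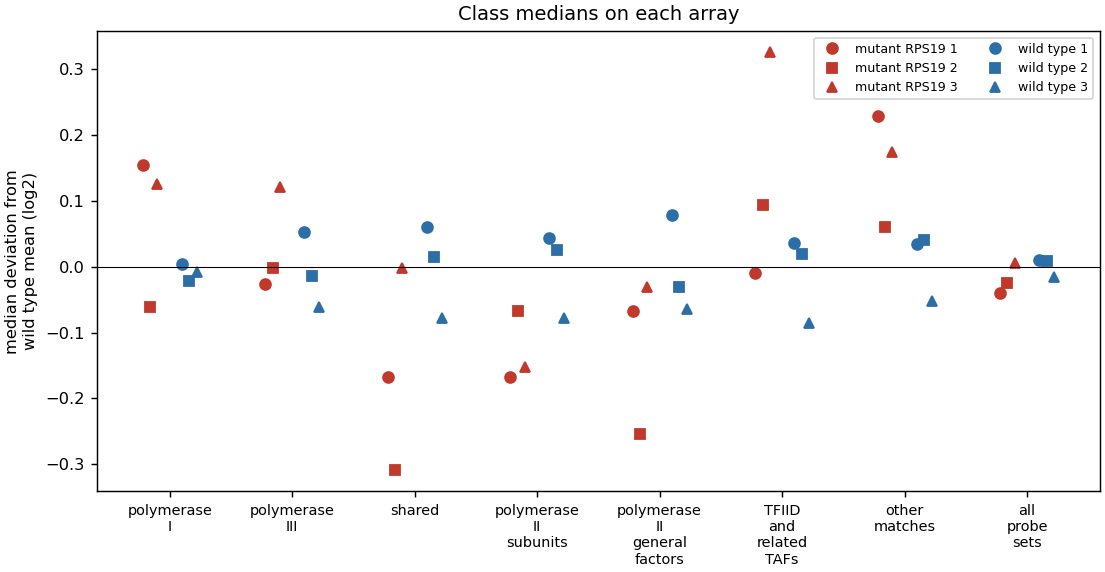
Median deviation of the probe sets of each class from their wild type mean (vertical axis, log2) on the 3 mutant RPS19 arrays (red) and the 3 wild type arrays (blue), with replicate numbers as symbols. Mutant arrays spread widely in shared components (-0.31 to -0.0019) and in TFIID and related TAFs (-0.01 to 0.33).

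Genes that work with these enzymes were described from lists for comparison. Of 43 Mediator probe sets, the complex that links activators to polymerase II, 0 were called by limma and the median was -0.00023. At an unadjusted p under 0.05 there were 7 (16.3%), against 19.1% of all probe sets. Of 47 probe sets of elongation factors, 1 was called higher and 2 lower (6.38%, median 0.09), against 2.33% of all probe sets. The lower pair both belonged to Supt16, the large subunit of the histone chaperone FACT. Supt16 fell by 1.04 on 1449578_at, with 5.73, 5.86 and 6.10 in the mutant and 7.01, 6.89 and 6.92 in wild type (adjusted p = 0.0100, limma). It fell by 0.54 on 1419741_at, with 10.06, 10.08 and 10.10 in the mutant and 10.69, 10.66 and 10.52 in wild type (adjusted p = 0.034). Both probe sets shared their direction with no overlap between groups, and the mean of the Supt16 probe sets was called at -0.79. Eloa, the transcriptionally active subunit of elongin, rose by 0.74 on 1422591_at (adjusted p = 0.028), while its other probe sets differed by 0.09 and -0.05. Of 9 probe sets of mitochondrial transcription genes, 1 was called higher (median -0.06). Polrmt, the mitochondrial RNA polymerase, rose by 0.61 on 1437377_a_at (adjusted p = 0.044) and differed by -0.20 on its other probe set. Without wild type replicate 1, 2 or 3 none of these 4 calls remained (adjusted p from 0.080 to 0.24). Without mutant replicate 2, that of 1449578_at alone remained, and without mutant replicate 3 that of Polrmt was lost (adjusted p = 0.060). Polrmt was also not called after median centring (adjusted p = 0.054) or repeated quantile normalisation (adjusted p = 0.060). Of the TFIIH genes that the symbol rule does not reach (Cdk7, Ccnh, Mnat1, Ercc2 and Ercc3), 0 of 8 probe sets were called by limma (4 at an unadjusted p under 0.05, median -0.21). Likewise 0 were called of 3 further polymerase I probe sets (1 unadjusted, median -0.12) and of 10 of polymerase III and small nuclear RNA gene factors (1 unadjusted, median 0.02). Of 4 probe sets of regulators of Tbp, limma called 0 (2 unadjusted, median -0.25).

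Other features of the arrays moved with the groups, and their part in the values above was not tested. Bacterial poly(A) transcripts spiked into the samples read 11.58 to 13.47 on the mutant and 8.74 to 8.77 on the wild type arrays. Hybridisation controls read 10.29 to 10.72 on the mutant and 9.29 to 9.41 on the wild type arrays. The 3′ minus 5′ value of Gapdh was 0.25 to 0.31 on the mutant and -0.087 to -0.049 on the wild type arrays. That of actin was 1.58 to 1.88 on the mutant and 1.26 to 1.37 on the wild type arrays. Each had an exact permutation p of 0.1 (two-sided, n = 3 each), the smallest that 3 arrays against 3 allow. The mean log2 level of 8 of 10 erythroid markers was 9.08 to 9.64 on mutant and 9.39 to 9.42 on wild type arrays. Tfrc, Slc4a1 and Klf1 read from 10.74 to 12.15, Epor from 7.90 to 9.15 and the Hba-a1 probe set from 2.87 to 3.27. Tfrc, the gene of the sorting marker CD71, was lower on all mutant arrays but not called (-0.34, adjusted p = 0.29, limma). Of the 8 erythroid markers 1 was called, a probe set of Hbb-b2 that was higher in the mutant (0.75, adjusted p = 0.047, limma). The mean of a single erythroid marker over all arrays ran from 3.10 to 11.97. For neutrophil markers that mean ran from 8.19 to 13.01. The mean log2 level of 8 neutrophil markers was 9.63 to 11.50 on mutant and 10.72 to 10.85 on wild type arrays, with mutant array 1 the highest and mutant array 3 the lowest. For 7 of 8 B cell markers it was 5.86 to 7.76 on mutant and 5.84 to 5.85 on wild type arrays. For 5 of 6 megakaryocyte markers it was 6.38 to 6.48 on mutant and 5.92 to 5.96 on wild type arrays, with Vwf called higher. For 7 macrophage markers it was 5.86 to 6.47 on mutant and 6.49 to 6.62 on wild type arrays, and for 4 of 5 T cell markers 4.60 to 4.70 on mutant and 4.77 to 4.88 on wild type arrays. In the neutrophil, B cell, macrophage and T cell lists limma called 0 of 26 markers.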

How the data were processed

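Total RNA from 6 sorted erythroblast samples was hybridised to 1 Affymetrix array each. The authors deposited log2 values; the submitters' processing notes name GCOS, Affymetrix Expression Console and RMA, with no versions. RMA removes background, brings the arrays to one distribution by quantiles and gives 1 value for each probe set. The sources used here do not say which arrays were normalised together. Of 22690 probe sets, 64 controls did not enter the tests. The platform annotation gave 20380 probe sets a single symbol, 691 several and 1555 none. Array medians ran from 5.34 to 5.40, and precision is limited by the number of arrays.

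The difference, mutant minus wild type, was fitted with limma 3.58.1 (R 4.3.3; lmFit and eBayes, two-sided, no covariates) over all 22626 remaining probe sets, with Benjamini-Hochberg adjustment. On simulated data of that size with 200 changed probe sets, 10% of changes of 0.5 and 64% of changes of 1 (log2) were called, with 5 false calls. The simulated noise was independent between probe sets and had the same SD in both groups. On the measured arrays the median SD over all probe sets was 0.177 in the mutant and 0.0896 in wild type. Alternatives covered the variance prior, array weights, normalisation, minimum brightness, a replicate block, probe sets per gene, the threshold and leaving out each array. Named by rule were all called members, the 3 lowest p of each class, Polr1a, Polr1b, Polr2a, Polr2b, Polr3a, Ubtf, Rrn3, Tbp and Gtf2b, members with a called probe set and another of opposite sign, and called genes of companion lists. Any other named member was chosen after its values were seen. Members, lists and tests were chosen with earlier results of these data known. RefSeq promoters were matched by gene identifier. Scripts used Python 3.11.15, pandas 2.3.3 and matplotlib 3.10.9.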

Additional observations from a re-analysis of the deposited data

How the results depend on the processing

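The counts of called members, 3 higher and 1 lower, changed with many settings, with 213 higher and 315 lower over all probe sets. They were 0 and 0 without a shared variance estimate (29 at an unadjusted p under 0.05; all probe sets 21 and 60), 0 and 0 with 1 probe set per gene (16 unadjusted; all genes 22 and 19) and 0 and 0 with the mean of probe sets per gene (16 unadjusted; all genes 19 and 28). With the replicate block they were also 0 and 0 (25 unadjusted; all probe sets 48 and 64). Deviations of samples with the same replicate number correlated at 0.051, 0.028 and 0.055. With 3 arrays a group, these values cannot decide whether the samples were paired. Array weights gave 9 and 13 (all 1286 and 1381), and an adjusted p under 0.10 gave 6 and 6 (all 593 and 793). A mean of at least 6 gave 2 higher and 5 lower of 74 members (all 249 and 347 of 9659). A mean of at least 8 gave 0 higher and 2 lower of 26 members (8 unadjusted), with 130 and 250 called of all 4283. At an unadjusted p under 0.05, 438 higher and 727 lower of these 4283 were counted. Leaving out 1 array gave 0 to 11 higher and 0 to 6 lower members, and 12 to 1352 higher and 24 to 1192 lower over all probe sets. Repeated quantile normalisation without controls called the same 4 members.

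Class medians moved by more than their spread over mutant arrays in some settings. With a mean of at least 8 the median was -0.10 over 26 members. Polymerase I was then 1 probe set, of Ubtf, at -0.15, and TFIID and related TAFs were 2 probe sets with a median of -0.22. For the remaining symbols (TFII-I family) the median was 0.26 there (1 probe set) and 0.25 with a mean of at least 6 (4 probe sets). It was 0.26 with 1 probe set per gene, 0.068 with the mean of probe sets, 0.028 with array weights and 0.12 to 0.27 on leaving out 1 array. The filters and gene summaries hold fewer values by construction; for array weights and for leaving out 1 array the cause was not tested.

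Signs turned for values near 0. Rrn3 was -0.087 with array weights and -0.037 after repeated quantile normalisation, Polr1a 1460215_at was -0.029 with array weights, and Tbp 1426470_at was -0.017 with the mean of probe sets. On that mean Polr2a was 0.15 and Polr3f 0.033, against the negative sign of 1 probe set of each; the mean holds both by construction. On leaving out 1 array, Rrn3 lay between -0.057 and 0.12, that Polr1a probe set between -0.055 and 0.21, that Tbp probe set between -0.065 and 0.19, and Polr1b between -0.18 and 0.035. The cause was not tested.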
